A study of Mus musculus with 24 samples.

Results

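The midday transcriptome of the mouse retinal pigment epithelium (RPE) was set against that at light onset. Midday was represented by the RPE of 5 mice collected 5 h (mice 1 to 3) and 6 h (mice 1 and 2) after the light came on, and light onset by that of 3 mice collected at 0 h. These 8 libraries are part of 24 that cover 8 times, with 3 mice at each. Mouse 3 of 6 h was left out because its deviations from the mean library fell with gene length (Spearman rho across genes -0.438, against -0.0950 to 0.151 in the 8 libraries used). All mice were wild-type 129S1/SvlmJ animals with the Leu450 form of Rpe65, kept on a standard diet under 12 h of cyclic light that began at 7 am. No group carried a mutation or a treatment, and age and sex were not given in the labels. The series addressed how genes of autophagy and the lysosome vary over the day. All 54532 genes of the table were considered and 16944 had enough counts to be tested. Levels are given in CPM (counts divided by library size), which do not account for gene length, so they compare 1 gene between mice and not 1 gene with another. Gene coordinates are those of the deposited table, on mm10.

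The circadian clock is a loop in which BMAL1 (encoded by Arntl), together with CLOCK or NPAS2, switches on the genes of its own repressors, the PER and CRY proteins and CIART. The same activators bind E-box sequences near genes of the REV-ERB receptors (Nr1d1 and Nr1d2), which repress Arntl at ROR elements, and of the factors DBP, TEF and HLF, which act at D-boxes and are opposed there by NFIL3. The RPE lies against the photoreceptors. It takes up the outer segment tips that they shed around light onset, digests them in lysosomes, returns retinoid to the photoreceptors through the visual cycle, and moves ions, water, lactate and nutrients between choroid and retina.

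Promoter windows of 4 clock genes and of Bmp4 are shown because these genes changed between midday and light onset, as described below, and because each window holds a motif of the clock loop. Sequences are those of RefSeq on GRCm38.p6, from 250 bases before to 50 bases after a gene's annotated start, written 5′ to 3′ on the gene's strand. Capitals mark an E-box (CACGTG) in Ciart and Bmp4, a D-box (TTATGTAA) in Per3, and a ROR element (TAGGTCA) in Arntl. In Nfil3 the capitals mark a ROR element on the opposite strand, which therefore reads TGACCTA.
Ciart, chr3:95882179-95882478, minus strand: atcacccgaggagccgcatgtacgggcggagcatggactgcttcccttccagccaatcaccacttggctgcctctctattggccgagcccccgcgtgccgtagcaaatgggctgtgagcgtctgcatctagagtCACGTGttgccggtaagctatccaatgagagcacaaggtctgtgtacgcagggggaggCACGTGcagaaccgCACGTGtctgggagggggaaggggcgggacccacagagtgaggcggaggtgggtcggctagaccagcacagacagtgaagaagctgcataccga
Per3, chr4:151044616-151044915, minus strand: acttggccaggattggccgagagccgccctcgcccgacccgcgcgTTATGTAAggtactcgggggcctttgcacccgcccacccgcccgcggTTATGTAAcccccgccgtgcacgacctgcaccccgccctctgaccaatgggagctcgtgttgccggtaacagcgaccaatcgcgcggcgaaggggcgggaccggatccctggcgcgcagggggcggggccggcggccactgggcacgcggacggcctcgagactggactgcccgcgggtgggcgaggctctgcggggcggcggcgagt
Arntl, chr7:113207261-113207560, plus strand: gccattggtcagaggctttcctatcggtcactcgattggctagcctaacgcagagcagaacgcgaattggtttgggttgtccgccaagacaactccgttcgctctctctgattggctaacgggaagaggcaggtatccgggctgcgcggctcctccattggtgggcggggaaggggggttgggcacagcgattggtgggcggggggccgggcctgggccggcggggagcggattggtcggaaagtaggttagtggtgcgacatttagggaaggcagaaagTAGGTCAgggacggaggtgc
Nfil3, chr13:52980990-52981289, minus strand: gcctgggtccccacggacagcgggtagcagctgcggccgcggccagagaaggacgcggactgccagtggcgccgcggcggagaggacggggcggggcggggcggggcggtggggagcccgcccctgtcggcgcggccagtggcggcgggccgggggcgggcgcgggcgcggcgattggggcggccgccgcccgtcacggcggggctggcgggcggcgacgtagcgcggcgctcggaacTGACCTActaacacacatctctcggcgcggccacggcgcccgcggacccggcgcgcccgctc
Bmp4, chr14:46390620-46390919, minus strand: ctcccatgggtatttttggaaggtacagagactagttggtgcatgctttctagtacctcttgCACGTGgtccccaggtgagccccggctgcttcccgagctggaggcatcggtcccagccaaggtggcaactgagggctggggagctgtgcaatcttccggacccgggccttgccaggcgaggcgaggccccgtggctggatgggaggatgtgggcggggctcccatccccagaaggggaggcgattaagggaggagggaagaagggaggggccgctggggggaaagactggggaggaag

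The Ciart window holds 3 E-boxes, which begin 116, 58 and 44 bases before the start, and the Bmp4 window holds 1 that begins 188 bases before it. Both D-boxes of Per3 lie upstream, at 205 and 158 bases before the start. The ROR element begins at base 31 in the transcribed part of the Arntl window shown and 12 bases upstream of Nfil3. Arntl has another window (chr7:113207215-113207514), for a different annotated start, which holds no E-box, D-box or ROR element. Read on both strands, the E-box was found in the windows of 11.2% of 12069 tested genes with a RefSeq window, the ROR element in 2.25% and the D-box in 0.729%. Among genes that were higher at midday (272 with a window) the shares were 15.8%, 2.21% and 1.84% for E-box, ROR element and D-box, and among genes that were lower (243 with a window) they were 14.8%, 3.70% and 0.412%. A cyclic AMP element (TGACGTCA) was found in 3.30% of all windows, against 2.21% and 4.12% for higher and lower genes. The shorter letters TGACG and the GC box (GGGCGG), neither marked here, were in 32.9% and 64.8% of all windows. The windows of Dbp, Nr1d1, Nr1d2, Cry2, Clock and Npas2 hold none of the E-box, D-box and ROR element letters. These matches describe the sequences and are not evidence of binding.

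The 8 libraries held 14718683 to 17121986 counts each. On the first principal component, which took up 29.4% of the variance, midday libraries lay at 9.17 to 21.3 and 0 h libraries at -28.8 to -15.1. All 8 defining RPE markers were detected, with summed levels of 40490 to 45650 CPM in midday libraries and 32860 to 39680 CPM at 0 h, with no overlap. All 8 were above 0 on the log2 scale, with a median of 0.23, and 4 passed as higher. Best1, a chloride channel of the RPE, was at only 2.76 to 4.76 CPM at midday and 2.96 to 5.05 CPM at 0 h. Genes of other cell types were present as well. The 21 rod genes summed to 1367 to 3179 CPM at midday and 3521 to 5303 CPM at 0 h, with no overlap of the groups. Median log2 difference of these rod genes was -1.15 and all 21 were below 0, but none passed the test in edgeR (14 at an unadjusted p under 0.05, and 4 calls in DESeq2). Surface epithelium genes (15, a list drawn up after the values were seen) summed to 21.9, 10.1 and 68.7 CPM in mice 1 to 3 of 5 h, 183.5 and 36.3 CPM in mice 1 and 2 of 6 h, and 124.6, 480.5 and 204.9 CPM in mice 1 to 3 of 0 h. Fibroblast and mural cell genes summed to 1677 to 2113 CPM at midday and 2110 to 2243 CPM at 0 h. In a bulk sample, fewer cells of a type and less RNA per cell cannot be told apart.

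Between midday and light onset 689 genes differed, of which 359 were higher and 330 lower at midday (adjusted p under 0.05). They are 4.07% of the genes tested, 2.12% higher and 1.95% lower. Most differences were modest. Median log2 change among the higher genes was 0.41, and 27 of them rose by more than 1 on the log2 scale, which is a doubling. Among the lower genes the median size of the change was 0.52, and 71 fell by more than 1. All 5 midday libraries lay above all 3 libraries of 0 h in 354 of the 359 higher genes and below them in 321 of the 330 lower genes. That separation was met by 6.91% of all genes tested in the upward and by 6.29% in the downward direction. The count of 689 was 353 without mouse 2 of 0 h, and 66 with the surface epithelium level as a covariate. With mouse 3 of 6 h included it was 93. Of the 99 genes named by the rule given below that passed, 71 no longer did with that mouse. Among these were Mertk, Vegfa, Fzd4, Shisal1, Pcdhac2 and Lrat. Adcy1, Ostm1, Fos, Atf3, Rdh10, Mfsd8, Spry1, Spry4 and Aldh1a1 were also among them. Below, this limit is repeated beside only some of the genes it holds for.

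**Figure D1:**
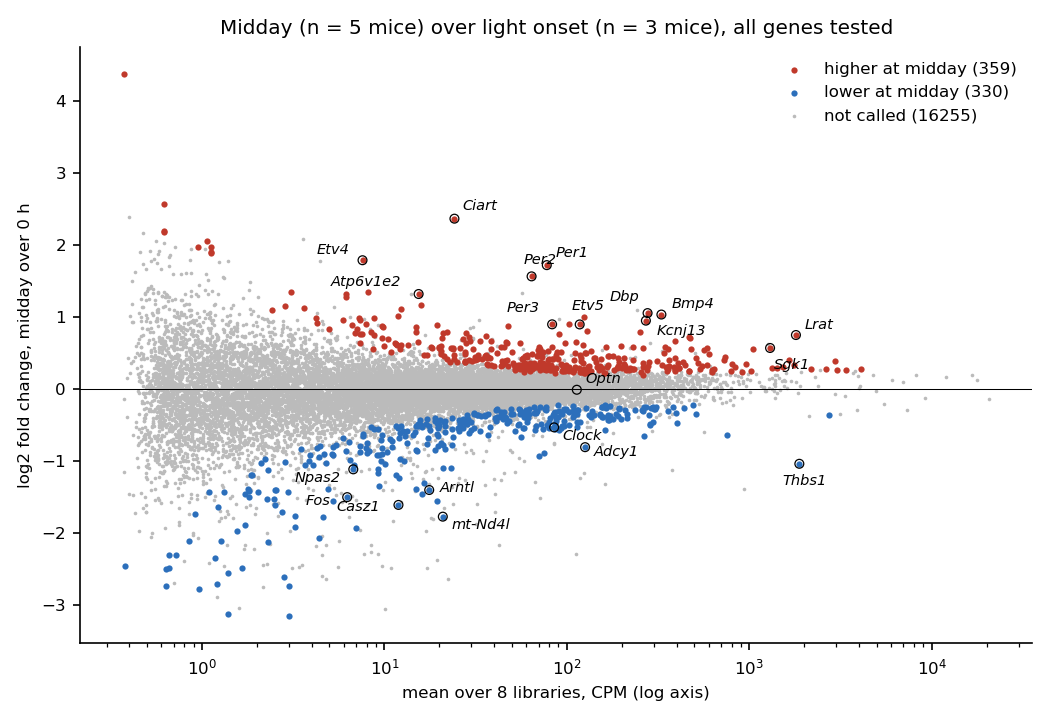
Mean level over the 8 libraries (CPM, log axis) against the log2 fold change of midday over 0 h for every gene tested. Red points mark the 359 genes that were higher at midday, blue points the 330 that were lower and grey points the other 16255; Ciart, Per1 and Per2 are among the higher genes, and Arntl, a clock activator, is among the lower genes.

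Repressors of the clock loop were higher at midday. Ciart (ENSMUSG00000038550, chromosome 3, 95878503 to 95882251), which represses BMAL1 and CLOCK, was at 31.4, 32.8 and 34.4 CPM at 5 h, 38.9 and 36.0 CPM at 6 h, and 5.87, 4.45 and 9.75 CPM at 0 h. Every midday mouse was thus well above every mouse of 0 h, and the log2 change of 2.37 ± 0.21 (SE) was the largest of the clock genes (adjusted p = 0.000271). Per1 (ENSMUSG00000020893, chromosome 11, 69095217 to 69109960) was at 85.2, 103.9 and 113.5 CPM at 5 h, 98.3 and 124.7 CPM at 6 h, and 33.2, 28.8 and 33.6 CPM at 0 h. It rose by 1.72 ± 0.12 on the log2 scale (adjusted p = 1.37e-05), and its groups did not overlap. Per2 (ENSMUSG00000055866, chromosome 1, 91415982 to 91459324) was at 76.8, 86.9 and 86.5 CPM at 5 h, 88.7 and 87.2 CPM at 6 h, and 22.9, 31.6 and 31.9 CPM at 0 h, a rise of 1.56 ± 0.10 (adjusted p = 1.65e-06). Per3, the third member of the PER family, was at 93.1 to 106.2 CPM at midday and 50.5 to 57.9 CPM at 0 h, a smaller rise of 0.90 ± 0.07 (adjusted p = 5.74e-06). Cry2, a partner of the PER proteins in repression, rose by 0.47 ± 0.07 (adjusted p = 0.00133). Its paralog Cry1 was at -0.03 (adjusted p = 0.923).

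Output factors and REV-ERB receptors were higher too. Tef, a PAR bZIP factor that activates D-boxes, was at 419.7, 452.0 and 446.3 CPM at 5 h, 464.0 and 487.2 CPM at 6 h, and 277.8, 278.7 and 301.8 CPM at 0 h. The groups were apart and the log2 change was 0.67 ± 0.06 (adjusted p = 3.45e-05). Dbp, of the same family, was at 372.5, 355.2 and 311.3 CPM at 5 h, 331.6 and 348.8 CPM at 6 h, and 111.8, 168.6 and 216.1 CPM at 0 h. All midday values were higher, but the 3 mice of 0 h spread widely, and the log2 change of 1.05 ± 0.20 (adjusted p = 0.0386) did not pass without mouse 2 of 0 h or without any single midday mouse (adjusted p up to 0.130). Of the exonic bases of Dbp, 18% are shared with Sphk2 on the opposite strand, whose reads cannot be told apart there and which fell by 0.58 ± 0.10 on the log2 scale (adjusted p = 0.00472). Hlf, the third PAR bZIP factor, rose by 0.41 ± 0.07 (adjusted p = 0.00254). Nr1d2 was at 167.2 to 198.1 CPM at midday and 112.2 to 133.4 CPM at 0 h (0.59 ± 0.07, adjusted p = 0.000328). Nr1d1, the other REV-ERB receptor, was at 165.7 to 214.9 CPM at midday and 119.7 to 148.0 CPM at 0 h (0.46 ± 0.09, adjusted p = 0.00994).

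Activators of the loop were lower at midday. Arntl (ENSMUSG00000055116, chromosome 7, 113207465 to 113314126) was at 11.9, 12.4 and 10.6 CPM at 5 h, 10.9 and 8.69 CPM at 6 h, and 32.6, 27.7 and 26.1 CPM at 0 h, and fell by 1.40 ± 0.12 on the log2 scale (adjusted p = 1.79e-05). Its highest midday value lay far below its lowest value at 0 h. Npas2, which pairs with BMAL1, was at 2.98 to 6.23 CPM at midday and 9.30 to 11.3 CPM at 0 h (-1.11 ± 0.20, adjusted p = 0.00497). Clock was at 66.7 to 78.1 CPM at midday and 95.3 to 115.5 CPM at 0 h, a fall of smaller size (-0.53 ± 0.07, adjusted p = 0.000700). Nfil3, the D-box repressor, was at 7.13, 6.43 and 7.25 CPM at 5 h, 5.55 and 10 CPM at 6 h, and 17.7, 12.6 and 10.7 CPM at 0 h. Mouse 2 of 6 h came close to the lowest mouse of 0 h, and the call (-0.91 ± 0.20, adjusted p = 0.0169) ended without mouse 1 or mouse 2 of 0 h (adjusted p up to 0.0898).

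Of 27 core clock genes, all tested, 10 were higher and 4 lower at midday, or 51.9% against 4.07% of all genes tested. Their median log2 change was 0.21, against -0.01 over all genes. The other 13 did not pass. Among them were Usp2, a deubiquitinase under clock control (0.70, adjusted p = 0.0821), and Bhlhe41, an E-box repressor (0.21, adjusted p = 0.0539). Rora and Rorb, whose products activate Arntl at ROR elements, were at 0.04 and -0.17. The kinases Csnk1d and Csnk1e were at 0.21 and 0.05, and the ubiquitin ligase gene Fbxl21 at 0.51. Without 1 library at a time 12 to 16 clock genes passed, and 8 passed when mouse 3 of 6 h was included. Fits with the rod level as a covariate ended the calls of Clock (-0.39, adjusted p = 0.119), Cry2 (0.445, 0.0658), Npas2 (-0.80, 0.307), Nr1d1 (0.39, 0.223), Nfil3 (-0.83, 0.334) and Dbp (0.86, 0.320). Those with the surface epithelium level ended the calls of Clock (-0.53), Cry2 (0.48), Npas2 (-1.42), Nfil3 (-1.16), Dbp (1.09) and Hlf (0.43), with adjusted p up to 0.342. All of these log2 changes kept their direction, and standard errors were larger (for Npas2 0.33 and 0.31, against 0.20). Rod sums did not overlap between the groups, so rod level and time cannot be told apart.

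**Figure D2:**
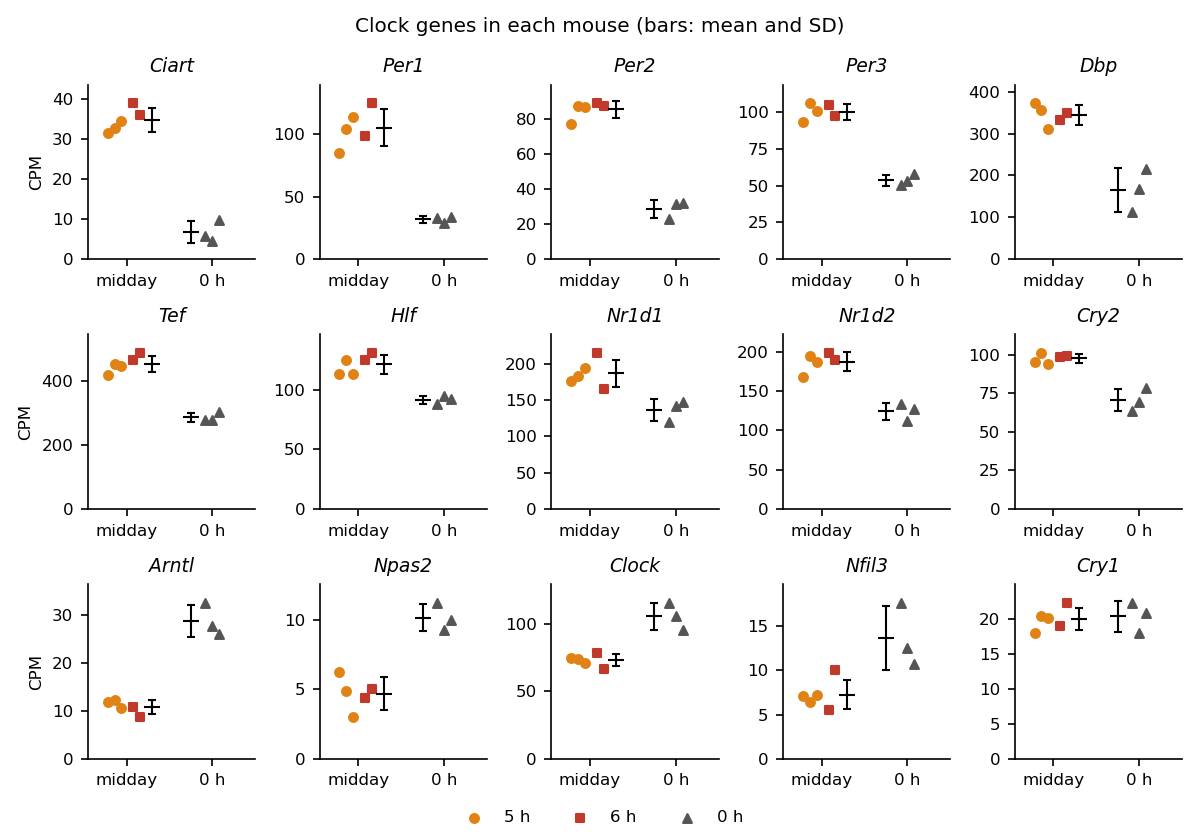
Levels (CPM) of 15 clock genes in each mouse, with midday on the left (5 h, circles; 6 h, squares) and 0 h on the right (triangles); bars give the mean and SD of 5 and 3 mice. Ciart, Per1, Per2, Per3 and Tef lie higher at midday without overlap, Arntl, Npas2 and Clock lie lower, and Cry1 does not separate.

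Genes of growth factor signalling included some of the smallest p-values. Bmp4 (ENSMUSG00000021835, chromosome 14, 46383520 to 46390669), a secreted ligand of the BMP family, was at 440.3, 400.5 and 396.2 CPM at 5 h, 400.1 and 404.0 CPM at 6 h, and 180.2, 211.1 and 206.2 CPM at 0 h. The midday level was about double, with no overlap and little spread (1.03 ± 0.07 on the log2 scale, adjusted p = 1.65e-06). It was the sole member to pass of 28 tested in the BMP and TGF beta pathway (3.57%, against 4.07% of all genes tested), whose median was -0.12. Etv5 (ENSMUSG00000013089, chromosome 16, 22381309 to 22439719), an ETS factor that FGF receptors induce through ERK, was at 154.7, 148.2 and 132.0 CPM at 5 h, 139.5 and 137.3 CPM at 6 h, and 78.2, 73.6 and 77.4 CPM at 0 h (0.90 ± 0.07, adjusted p = 3.31e-06). Its relative Etv4 was at 8.64 to 12.4 CPM at midday and 2.70 to 3.39 CPM at 0 h, a low level but with groups far apart (1.79 ± 0.19, adjusted p = 7.94e-05). Feedback inhibitors of the same receptors were also higher, with Spry1 at 0.39 ± 0.06 (adjusted p = 0.00177) and Spry4 at 0.46 ± 0.07 (adjusted p = 0.00186). In all, 7 of 19 FGF targets and feedback genes were higher and 1 lower (42.1%, against 4.07% of all genes tested). The median of the list was 0.11. The lower one was Dusp5, a phosphatase of ERK, named after its value was seen (-0.82 ± 0.22, adjusted p = 0.0478). The total of 8 became 5 without mouse 2 of 0 h and 2 with mouse 3 of 6 h included. It was 4 with the rod level and 2 with the surface epithelium level as a covariate.

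In other signalling lists a few members passed, beside 4.07% of all genes tested. Cish (ENSMUSG00000032578, chromosome 9, 107296026 to 107302784), which restrains STAT5 signalling, was at 19.2, 21.0 and 21.1 CPM at 5 h, 17.6 and 20.9 CPM at 6 h, and 6.05, 11.7 and 8.98 CPM at 0 h. It rose by 1.16 ± 0.17 on the log2 scale (adjusted p = 0.00133), alone among 14 STAT feedback genes. Sgk1, a kinase induced by glucocorticoids, was at 1360 to 1628 CPM at midday and 976.6 to 1013 CPM at 0 h (0.57 ± 0.07, adjusted p = 0.000186). Per1 was the other gene to pass of 18 glucocorticoid targets, whose median was 0.09. Of 37 Wnt pathway genes 2 passed (5.41%), the receptor gene Fzd4 at 0.51 ± 0.08 (adjusted p = 0.00116) and the Wnt potentiator Rspo2 at -1.20 ± 0.17 (adjusted p = 0.000960). The call of Fzd4 ended with mouse 3 of 6 h included and in a shared fit over 24 libraries (adjusted p up to 0.497). Among 28 enzymes of cyclic AMP, Adcy1 (ENSMUSG00000020431, chromosome 11, 7063489 to 7178506), a calcium-stimulated adenylyl cyclase, was at 97.5, 107.7 and 98.6 CPM at 5 h, 105.8 and 81.9 CPM at 6 h, and 175.7, 173.9 and 166.1 CPM at 0 h. It fell by 0.81 ± 0.08 (adjusted p = 3.45e-05) with no overlap. The call of Adcy1 ended with mouse 3 of 6 h included (adjusted p = 0.0644). Another cyclase gene, Adcy5, was at -0.64 ± 0.13 (adjusted p = 0.0103, and 0.0695 without mouse 3 of 0 h). The phosphodiesterase gene Pde4b was higher by 0.64 ± 0.10 (adjusted p = 0.00144).

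Retinoid genes moved in both directions. Lrat (ENSMUSG00000028003, chromosome 3, 82892579 to 82903973), which esterifies retinol and so feeds the visual cycle, was at 2248, 2223 and 1874 CPM at 5 h, 2225 and 2057 CPM at 6 h, and 1307, 1373 and 1110 CPM at 0 h. Groups were far apart and the log2 change was 0.75 ± 0.08 (adjusted p = 0.000100). The call ended with mouse 3 of 6 h included (adjusted p = 0.0802). Rdh10, a retinol dehydrogenase, rose by 0.39 ± 0.07 (adjusted p = 0.00345). Rpe65, the isomerase of the cycle, was at 4579 to 5440 CPM at midday and 3908 to 4761 CPM at 0 h. Its groups overlapped and it did not pass (0.19 ± 0.08, adjusted p = 0.194). Of 15 visual cycle genes 5 were higher and 1 lower (40%, against 4.07% of all genes tested), with a median of 0.20. Stra6, the retinol transporter (0.28), Rdh5 (0.27) and Rlbp1, a retinaldehyde binding protein (0.26), were the other higher ones, and Rdh11 (-0.28) was lower. The call of Stra6 ended without mouse 1 or mouse 2 of 0 h (adjusted p up to 0.0670). Those of Rdh5, Rlbp1 and Rdh11 ended without 1 of 6, 7 and 5 libraries (adjusted p up to 0.110, 0.117 and 0.175). The total of 6 became 2 without mouse 2 of 0 h and 0 with mouse 3 of 6 h included. Lrat, Rdh5 and Rlbp1 are also among the 8 defining RPE markers, whose median was 0.23.

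In the retinoic acid list, 2 of 16 genes were higher and 4 lower (37.5%, against 4.07% of all genes tested). The median of the list was -0.12. Aldh1a1, which makes retinoic acid from retinaldehyde, was at 26.1, 25.5 and 24.4 CPM at 5 h, 22.3 and 27.4 CPM at 6 h, and 41.3, 37.3 and 33.2 CPM at 0 h. It fell by 0.57 ± 0.10 on the log2 scale without overlap (adjusted p = 0.00308). Rara, a retinoic acid receptor gene, fell by 0.50 ± 0.09 (adjusted p = 0.00532). The 2 higher ones were Rdh10 and Stra6, also counted above. The total of 6 became 3 without mouse 2 of 0 h. It was 1 with mouse 3 of 6 h included and 1 with the surface epithelium level as a covariate.

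Transport genes of the RPE were higher where they changed. Kcnj13 (ENSMUSG00000079436, chromosome 1, 87386363 to 87394729, known as Kir7.1), the potassium channel of the apical membrane, was at 379.1, 342.6 and 323.4 CPM at 5 h, 314.1 and 296.0 CPM at 6 h, and 186.5, 187.9 and 139.7 CPM at 0 h. All midday mice were above all mice of 0 h (0.95 ± 0.11 on the log2 scale, adjusted p = 0.000684). Of its exonic bases 49.1% are shared with Gigyf2 on the opposite strand, and Gigyf2 itself was at 0.04 ± 0.07 (adjusted p = 0.839). Car12, a membrane carbonic anhydrase, rose by 0.31 ± 0.06 (adjusted p = 0.00704). Car14, of the same family (0.25), and Slc16a1, the lactate transporter MCT1 (0.29), passed with all 8 libraries but not without 1 of several (adjusted p up to 0.0915 and 0.112 for Car14 and Slc16a1). These changes stand beside the median of 0.23 of the defining RPE markers, among which Kcnj13 itself is counted. The part of RPE content was not tested. In total 5 of 30 transport genes were higher and none was lower (16.7%, against 4.07% of all genes tested). The median of that list was 0.08. The count of 5 became 2 when mouse 3 of 0 h or mouse 1 of 6 h was left out. It was 1 with mouse 3 of 6 h included and 0 with the surface epithelium level as a covariate. Vegfa, which the RPE secretes towards the choroid, rose by 0.40 ± 0.06 (adjusted p = 0.00116). That call ended in several fits, among them the one with mouse 3 of 6 h included (adjusted p up to 0.541). Ezr, a linker of apical microvilli, was at 0.30 ± 0.06 (adjusted p = 0.0159, and 0.0608 without mouse 1 of 0 h). Of 22 RPE identity genes 6 were higher, Lrat and Kcnj13 among them, and 1 lower (31.8%, against 4.07% of all genes tested). That total of 7 became 4 without mouse 1 or mouse 2 of 0 h. It was 1 with mouse 3 of 6 h included and 1 with the surface epithelium level as a covariate. None of 23 melanin genes passed in edgeR or DESeq2 (3 at an unadjusted p under 0.05).

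In outer segment uptake and fat metabolism a few genes were higher. Mertk (ENSMUSG00000014361, chromosome 2, 128698956 to 128802894), the receptor with which the RPE ingests outer segments, was at 258.5, 255.2 and 242.1 CPM at 5 h, 270.8 and 251.0 CPM at 6 h, and 180.8, 199.5 and 196.4 CPM at 0 h. Groups were apart, with a log2 change of 0.41 ± 0.06 (adjusted p = 0.00116). The call ended with mouse 3 of 6 h included and in a shared fit over 24 libraries (adjusted p up to 0.857). Of 25 phagocytosis genes 8% passed, against 4.07% of all genes tested. Tub, which bridges outer segments to MERTK, was the only other phagocytosis gene to pass, in the opposite direction (-0.83 ± 0.16, adjusted p = 0.0134, and 0.0562 without mouse 1 of 0 h). The 21 rod genes were lower as well, with a median of -1.15, and with their level as a covariate Tub was at -0.37 (adjusted p = 0.449). Plin2 (ENSMUSG00000028494, chromosome 4, 86648386 to 86670060), which coats lipid droplets, was at 148.8, 149.2 and 143.2 CPM at 5 h, 125.9 and 138.3 CPM at 6 h, and 95.6, 93.0 and 87.1 CPM at 0 h. All midday mice were above those of 0 h (0.62 ± 0.07, adjusted p = 0.000133). Acadl, a dehydrogenase of fatty acid oxidation, rose by 0.31 ± 0.06 (adjusted p = 0.00579). Ppara, the receptor that drives many of these genes, was lower (-0.62 ± 0.14, adjusted p = 0.0238), though not without mouse 2 of 0 h or mouse 2 of 5 h (adjusted p up to 0.141). Of 28 genes of fatty acid oxidation and ketogenesis 5 were higher and 2 lower (25%, against 4.07% of all genes tested). The median of the list was 0.04. The total of 7 became 3 without mouse 2 of 0 h. It was 2 with mouse 3 of 6 h included and 2 with the rod or surface epithelium level as a covariate. In the cholesterol list Lss and Cyp51 were at 0.33 and 0.36, and both calls ended without 1 of 7 libraries (adjusted p up to 0.142 and 0.117 for Lss and Cyp51).

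Autophagy genes are the subject of the series. None of 45 genes of the autophagy machinery passed in edgeR, although 5 had an unadjusted p under 0.05. Of all genes tested 4.07% passed, so a list of this size would hold few calls at that share. Log2 changes of the list ran from -0.66 to 0.23 with a median of 0.00. Rubcn, an inhibitor of autophagosome maturation, came nearest (-0.19, adjusted p = 0.154). None of 21 selective autophagy receptors passed either (3 at an unadjusted p under 0.05), with a median of 0.05. Optn (ENSMUSG00000026672, chromosome 2, 5020642 to 5064051), a receptor for ubiquitinated cargo and mitochondria, was at 106.3, 117.0 and 108.5 CPM at 5 h, 118.2 and 115.7 CPM at 6 h, and 108.5, 124.4 and 108.8 CPM at 0 h. These groups overlapped (-0.01 ± 0.07, adjusted p = 0.967). Sqstm1, which encodes the receptor p62, was at -0.03 ± 0.05 (adjusted p = 0.815). DESeq2 likewise called 0 genes in both lists. Of 37 genes of the MiT/TFE factors and mTORC1 2.7% passed, against 4.07% of all genes tested. Rragd, a GTPase that recruits mTORC1 to the lysosome, was the sole one and was lower (-0.25 ± 0.06, adjusted p = 0.0239). Its call ended without 1 of 5 libraries (adjusted p up to 0.122). Tfeb and Mitf, transcription factors of lysosomal genes, were at -0.06 (adjusted p = 0.828) and 0.11 (adjusted p = 0.481).

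A few lysosomal genes differed. Ostm1 (ENSMUSG00000038280, chromosome 10, 42583822 to 42702459), the subunit of the lysosomal chloride transporter CLC-7, was at 173.2, 171.1 and 164.4 CPM at 5 h, 171.8 and 171.2 CPM at 6 h, and 135.6, 129.3 and 116.6 CPM at 0 h. It rose by 0.42 ± 0.06 on the log2 scale without overlap (adjusted p = 0.00112). Mfsd8, a lysosomal membrane transporter, rose by 0.56 ± 0.10 (adjusted p = 0.00345). Of 31 lysosomal membrane genes 3 were higher and 1 lower (12.9%, against 4.07% of all genes tested), with a median of 0.03. Tmem192 (0.38) and Litaf (-0.32), the remaining members of that count, were less firm. Leaving out 1 of 6 libraries ended the call of Tmem192 (adjusted p up to 0.148) and 1 of 3 that of Litaf (up to 0.0877). The count of 4 was 2 when mouse 1 or mouse 2 of 0 h or mouse 2 of 5 h was left out. It was 0 with mouse 3 of 6 h included and 0 with the surface epithelium level as a covariate. Of 54 lysosomal hydrolases and their helpers 2 were higher, or 3.70%, near the 4.07% of all genes tested. These were Sumf1, which activates sulfatases (0.25 ± 0.06, adjusted p = 0.0363), and Ctsd, the aspartic protease cathepsin D (0.26 ± 0.07, adjusted p = 0.0467). Both calls ended without 1 of at least 6 libraries (adjusted p up to 0.110 and 0.160 for Sumf1 and Ctsd), and 34.4% of the exonic bases of Ctsd are shared with a predicted gene, Gm49369. None of the 20 V-ATPase genes tested from the list, which does not hold Atp6v1e2, passed in edgeR or in DESeq2 (2 at an unadjusted p under 0.05), while 18 of them were above 0, with a median of 0.12.

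**Figure D3:**
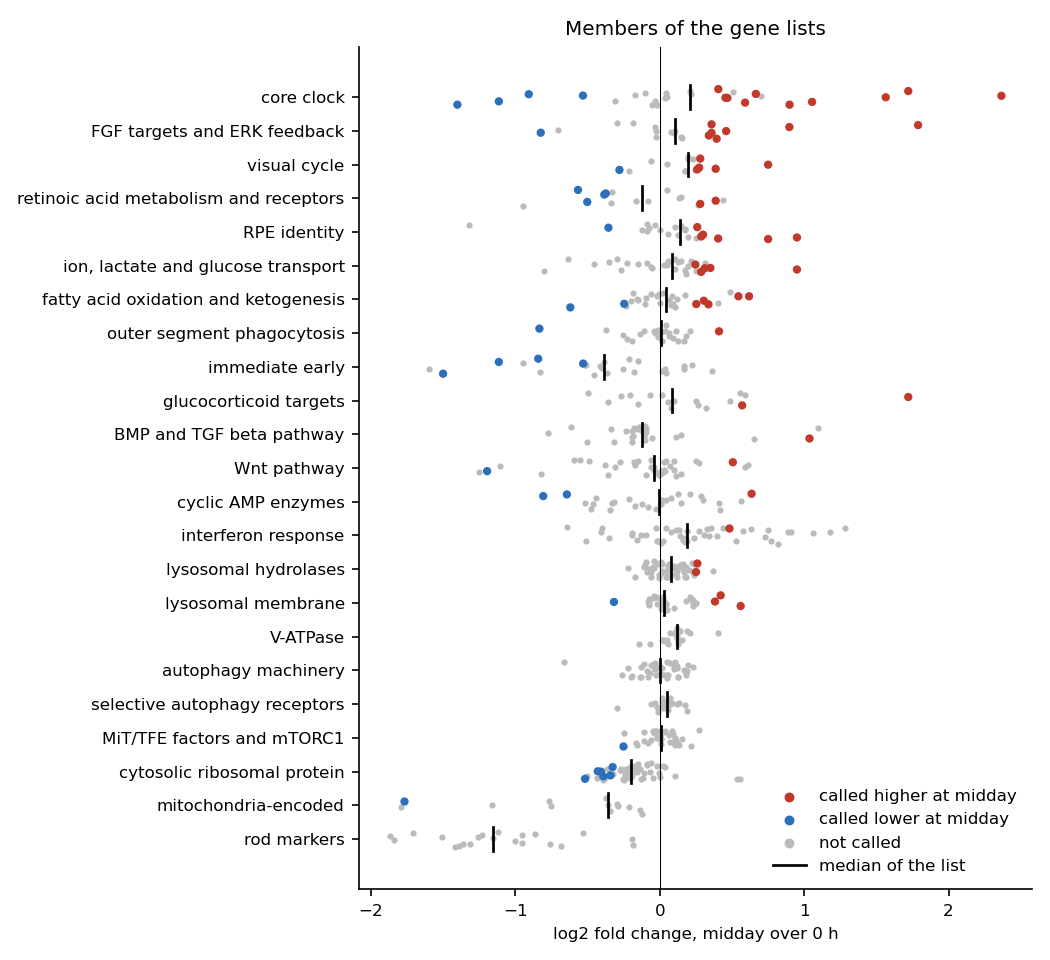
Log2 fold change of midday over 0 h for each tested member of 23 gene lists, 1 point per gene, with members that passed in colour and a black tick at each list's median. Core clock members spread from -1.40 to 2.37, while autophagy machinery and selective autophagy receptors hold no member that passed.

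Immediate early and translation genes were lower where they changed. Fos, an AP-1 factor induced by many stimuli, was at 3.72, 3.68 and 5.06 CPM at 5 h, 2.77 and 3.30 CPM at 6 h, and 6.96, 8.56 and 16.0 CPM at 0 h. Mouse 3 of 0 h stood highest, and the groups did not overlap (-1.50 ± 0.26 on the log2 scale, adjusted p = 0.00530). Atf3, a stress-induced factor, fell by 1.11 ± 0.16 (adjusted p = 0.000837) and Ier2, another immediate early gene, by 0.84 ± 0.16 (adjusted p = 0.00634). With Btg2 (-0.53 ± 0.14, adjusted p = 0.0492, and up to 0.275 without 1 of 7 libraries), 4 of 25 immediate early genes were lower and none was higher. These are 16% of the list, against 1.95% lower among all genes tested, and the median was -0.39. The count of 4 was 0 with mouse 3 of 6 h included and 0 with the surface epithelium level as a covariate. Among 57 cytosolic ribosomal protein genes 6 were lower (10.5%, against 1.95% lower among all genes tested), with a median of -0.20. Rpl37 was 1 of the 6 (-0.52 ± 0.09, adjusted p = 0.00460). Without 1 library the count of 6 ran from 3 (leaving out mouse 2 of 5 h or mouse 1 of 6 h) to 15. It was 0 with mouse 3 of 6 h included, with 6 h alone and with the surface epithelium level as a covariate. All 13 mitochondria-encoded transcripts were below 0, with a median of -0.36, but only mt-Nd4l passed, and not without 1 of 4 libraries (adjusted p up to 0.0780). Of 28 genes of the unfolded protein response 2 were higher (7.14%, against 4.07% of all genes tested). These were Herpud1 (0.42 ± 0.06, adjusted p = 0.00144) and Eif2ak3, which encodes the kinase PERK (0.42 ± 0.08, adjusted p = 0.00855). Rbm3, a cold-inducible RNA-binding protein, was higher by 0.34 ± 0.07 (adjusted p = 0.0106), and none of 25 heat shock genes passed in edgeR or DESeq2 (3 at an unadjusted p under 0.05).

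Several of the largest changes, among called genes whose mean level reached 5 CPM, were in genes of no list. Atp6v1e2, a variant V-ATPase subunit known from testis, was at 18.8 to 21.4 CPM at midday and 7.16 to 9.01 CPM at 0 h (1.32 ± 0.12 on the log2 scale, adjusted p = 2.24e-05). Of its exonic bases 29.4% are shared with other genes. Shisal1 rose by 1.00 ± 0.09 (adjusted p = 2.60e-05), Tnfrsf18, a receptor of the TNF family, by 1.28 and Il12b, a cytokine subunit, by 1.01. For Tnfrsf18, 27.2% of exonic bases are shared with Gm16008 on the opposite strand. Pglyrp1, an antibacterial protein of neutrophils, was lowest at -1.92 ± 0.42 (adjusted p = 0.0464), a call that ended without 1 of 6 libraries (adjusted p up to 0.12). Other lower genes were Hopx (-1.55), a homeodomain-only cofactor with 27.2% of exonic bases shared with Hopxos, and Casz1 (-1.61), a zinc finger factor. Pcdhac2 (-1.39), a clustered protocadherin with 48.6% of exonic bases shared with its neighbours in the cluster, and Egflam (-1.17), the photoreceptor synapse protein pikachurin, also fell. Igkc, the immunoglobulin kappa constant region, was lower by 1.31 as well, beside B cell genes (8, a list drawn up after the values were seen) that summed to 4.41 to 8.80 CPM at midday and 15.7 to 19.0 CPM at 0 h. The part of B cells in that result was not tested. Pitpnm3 (-1.55) and Frmpd1 (-1.23), both known in photoreceptors, were lower too. The call of Pitpnm3 ended without 1 of 6 libraries (adjusted p up to 0.106). That of Frmpd1 ended without mouse 1 or mouse 3 of 0 h (adjusted p up to 0.0546). With the rod level as a covariate, Casz1, Egflam, Pitpnm3 and Frmpd1 were at -0.72, -0.66, -0.71 and -0.48, and none of them passed (adjusted p = 0.132, 0.198, 0.118 and 0.351).

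The midday times were also compared with each other. At 6 h 21 genes were lower than at 5 h and 0 were higher, or 0.124% of 16927 genes tested, while 1174 had an unadjusted p under 0.05 and DESeq2 called 14 higher and 107 lower. The count of 21 was 62 when mouse 2 of 5 h was left out. It was 42 for mouse 1 of 6 h, where the lone mouse at 6 h is assumed to vary like those of 5 h. Interferon-stimulated genes were among them. Oasl2, an antiviral protein, was at 9.23 and 8.44 CPM at 6 h and 28.2, 27.4 and 24.5 CPM at 5 h, and was 10.4, 11.7 and 12.7 CPM at 0 h (-1.59 ± 0.13 for 6 h over 5 h, adjusted p = 0.000980). Irf7, a factor that amplifies interferon production, was at 5.94 and 6.15 CPM at 6 h and 17.3 to 20.5 CPM at 5 h, and 8.35 to 12.7 CPM at 0 h (-1.60 ± 0.16, adjusted p = 0.00306). So for both genes the mice of 5 h were high, and those of 6 h lay below those of 0 h. Genes of skeletal muscle (Casq1, Srl, Tcap, Ryr1) were lower at 6 h as well. The 10 skeletal muscle markers summed to 280.2 and 490.8 CPM at 6 h and 1010, 883.0 and 997.6 CPM at 5 h, against 687.6 to 865.9 CPM at 0 h. The part of muscle in these 21 genes was not tested.

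For the interferon list, the choice of midday mice sets the count. With 5 h alone, 16 of 47 members were higher than at 0 h, against 2.83% of all genes in that comparison (1.38% higher, 1.45% lower). With 6 h alone, 0 of 46 passed in edgeR (1.52% of all genes, 0.723% higher and 0.8% lower), and with both times 1 of 47 did. That one was Ifit3b, at 44.9, 47.7 and 41.1 CPM at 5 h, 34.9 and 33.1 CPM at 6 h, and 27.1, 29.6 and 30.2 CPM at 0 h (0.48 ± 0.12 on the log2 scale, adjusted p = 0.0327). Its call ended without 1 of 6 libraries (adjusted p up to 0.114). The median of the 47 members was 0.19.

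**Figure D4:**
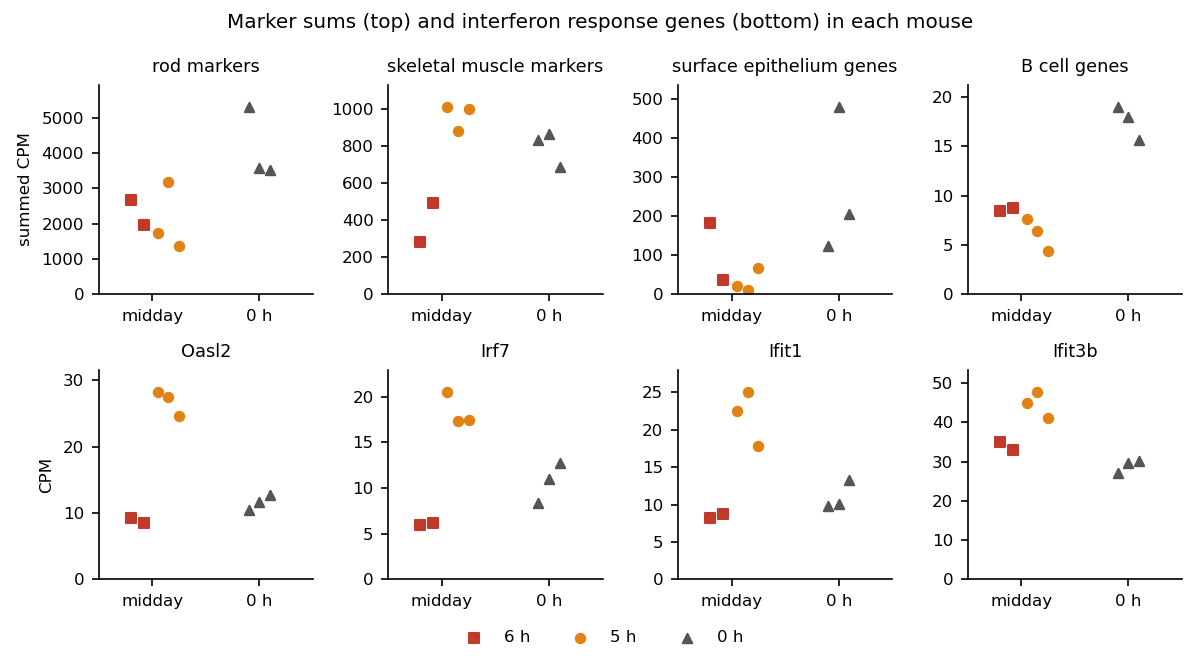
Top, summed levels (CPM) of rod, skeletal muscle, surface epithelium and B cell genes in each library; bottom, levels (CPM) of Oasl2, Irf7, Ifit1 and Ifit3b. Midday stands left (6 h, squares; 5 h, circles) and 0 h right (triangles); rod sums do not overlap between midday and 0 h, and Oasl2, Irf7 and Ifit1 are highest at 5 h.

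Midday was also set against the sampled times that lie between or after. Against 1 h 1281 genes differed (7.59% of 16877), against 3 h 771 (4.54% of 16990) and against 9 h 1815 (10.7% of 16925). These comparisons share the 5 midday libraries with each other and with the comparison above. The higher genes were 3.53%, 2.21% and 5.26% of those tested and the lower ones 4.06%, 2.32% and 5.47%, for 1 h, 3 h and 9 h. Single libraries carried part of each count. Against 1 h it was 324 when mouse 1 of 1 h was left out, 444 for mouse 2 of 1 h, 772 for mouse 2 of 5 h and 733 for mouse 1 of 6 h. Against 3 h the corresponding values were 326 and 358 for mice 1 and 2 of 3 h, 457 and 365 for mice 1 and 2 of 5 h and 346 for mouse 1 of 6 h. Against 9 h they were 349 and 723 for mice 1 and 2 of 9 h, 1050 for mouse 2 of 5 h and 989 for mouse 1 of 6 h. Levels below are means in the order 0, 1, 3, 5, 6, 9, 15 and 16 h, with 2 mice at 6 h and at 15 h (mouse 3 of 15 h also stood apart in gene length) and 3 elsewhere. When mouse 3 of 6 h was included, 0 genes passed in edgeR as higher at midday than at 1 h and 0 as higher than at 9 h. As lower, 6 and 1 passed (1885 and 2068 in either direction at an unadjusted p under 0.05). Each call of midday above 1 h or 9 h given below thus rests on leaving that mouse out. Against 3 h, 83 genes passed with that mouse, 23 higher and 60 lower, in place of 771. For calls against 3 h and calls below 1 h, fits with that mouse are not given by gene.

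Some clock genes followed the light phase steadily and others did not. Ciart had means of 6.62, 13.7, 23, 32.6, 37.1, 34.3, 5.08 and 5.74 CPM, with midday above 1 h (1.33, adjusted p = 0.0234) and 3 h (0.58, adjusted p = 0.00345). Arntl ran the other way, at 28.5, 21.0, 19.5, 11.5, 9.71, 6.85, 15.9 and 19.4 CPM, and midday was still above 9 h (0.66, adjusted p = 0.0209). Per1 was at 31.6, 113, 48.3, 100, 110, 131, 68.6 and 93.5 CPM. Midday did not pass against 1 h (-0.12, adjusted p = 0.565) and was above 3 h (1.11, adjusted p = 0.00150). Cish, also high at 1 h, was at 8.84, 29.0, 8.96, 20.2, 19.0, 26.1, 18.2 and 22.2 CPM, and midday was below 1 h (-0.55, adjusted p = 0.00277) and above 3 h (1.14, adjusted p = 0.000385).

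Other genes had their highest means at midday. Kcnj13 was at 170, 178, 202, 345, 302, 236, 148 and 188 CPM, and midday was above 1 h (0.88, adjusted p = 0.000309), 3 h (0.70, adjusted p = 0.00326) and 9 h (0.48, adjusted p = 0.00883). Mertk was at 190, 189, 197, 250, 259, 209, 185 and 210 CPM, with midday above the same times (0.42, 0.36 and 0.28, adjusted p = 0.00396, 0.00526 and 0.00782). Plin2 was at 91.0, 105.6, 113.4, 145.8, 131.0, 112.8, 83.5 and 96.2 CPM, also above all 3 times (0.41, 0.30 and 0.31, adjusted p = 0.0164, 0.0243 and 0.00812). Means of Kcnj13 and Mertk at 0 h and 1 h lay close together. Bmp4 was at 197, 321, 252, 409, 398, 337, 227 and 292 CPM, with midday above 1 h (0.33, adjusted p = 0.0142), 3 h (0.68, adjusted p = 0.000175) and 9 h (0.27, adjusted p = 0.0425). Etv5 was at 75.7, 110, 108, 144, 137, 117, 80.0 and 96.4 CPM, and midday was above 1 h, 3 h and 9 h by 0.36, 0.38 and 0.27 (adjusted p = 0.00377, 0.00660 and 0.0167). Ostm1, of the lysosomal membrane, was above 1 h and 3 h (0.43 and 0.36, adjusted p = 0.000405 and 0.00417) but did not pass against 9 h (0.18, adjusted p = 0.0634). Optn did not pass against 1 h or 3 h (adjusted p = 0.476 and 0.803) and was above 9 h by 0.21 (adjusted p = 0.0448).

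**Figure D5:**
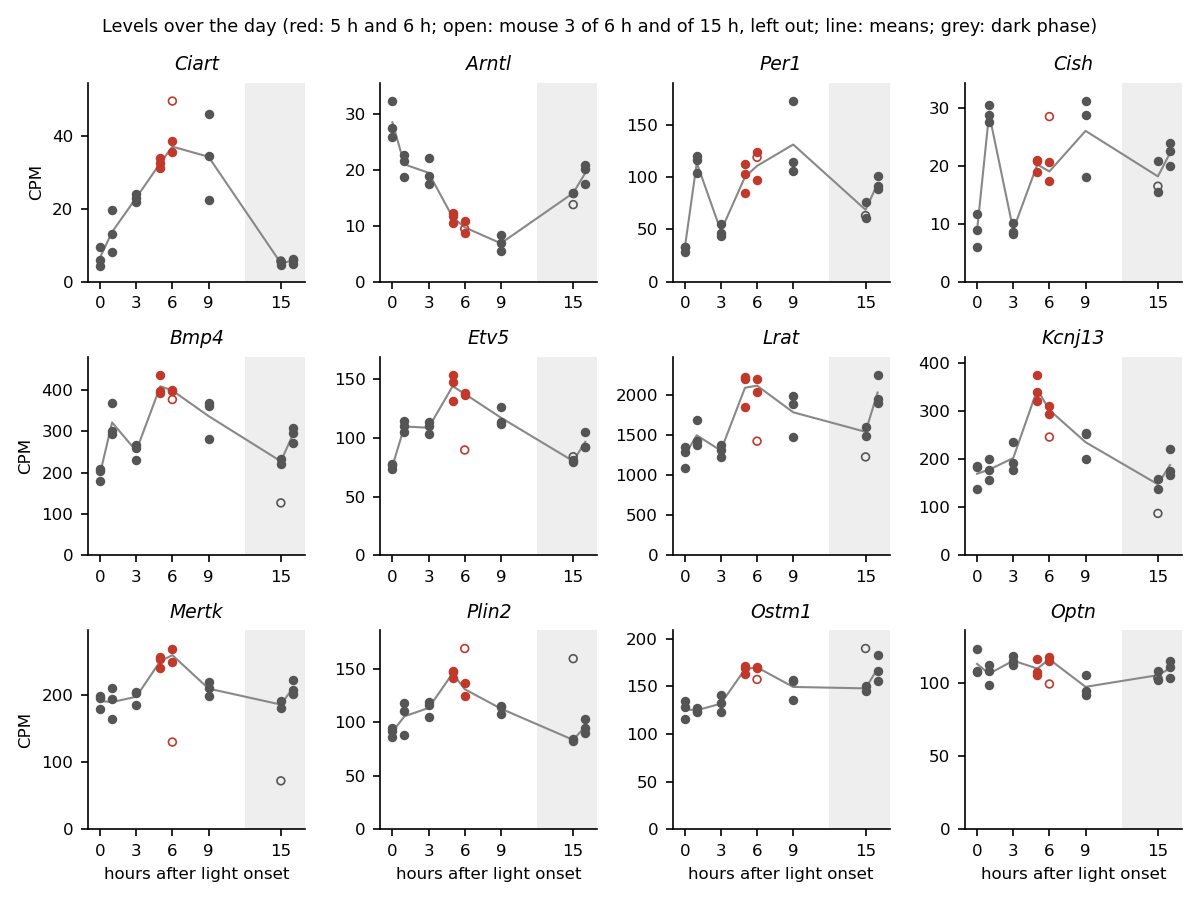
Levels (CPM) of 12 genes in each mouse over the 8 times (hours after light onset), with lines through the means, 5 h and 6 h in red, the dark phase shaded, and open symbols for mouse 3 of 6 h and mouse 3 of 15 h, which the means leave out. Kcnj13, Mertk and Plin2 have their highest means at 5 h and 6 h, Per1 and Cish are also high at 1 h, and Arntl is lowest at 9 h.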

How the data were processed

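Per the labels' protocols, total RNA of mouse RPE was made into libraries that carry no strand information. The authors deposited 1 table of raw read counts per gene, with 1 column per mouse. STAR, HTSeq and the build mm10 appear in the submitters' processing notes. Their roles and versions and the annotation are not given in the sources used here. Column names give the clock hour, which was matched to hours after light onset through the labelled 7 am onset.

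Midday (5 mice) was compared with 0 h (3 mice) with edgeR 4.0.16 in R 4.3.3: filterByExpr (minimum count 10) on these 8 libraries, which kept 99.86% to 99.88% of counts, TMM scaling, robust glmQLFit and glmQLFTest. All p-values were adjusted by Benjamini-Hochberg over the genes tested, and 0.05 was the threshold. Standard errors are the log2 change divided by the root of F. On simulated counts the method was tested before use. CPM use TMM scaling over the 8 libraries, and over 24 for levels by time (a difference of at most 1.2%). The labels give each library as a separate mouse; nothing says how collection was organised, so p-values measure the spread between these samples. The lowest chi-square per degree of freedom between 2 of the 8 libraries was 6.08, so none was a duplicate. Same-numbered mice deviated with correlations of -0.052 to 0.128, so numbers were not taken as pairs.

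Members and the 45 lists (11 of cell markers) were chosen with earlier results of these data known. Named genes are the 15 largest rises and 15 largest falls among called genes whose mean over the 8 libraries reached 5 CPM, every core clock gene tested, up to 4 called members of each other list by lowest adjusted p (with none called, the one with the lowest p), and Optn, Tfeb, Mitf, Sqstm1, Rpe65 and Mertk. Alternatives were RLE scaling, no filter or a minimum count of 30, limma-voom (limma 3.58.1), DESeq2 1.42.0 (missing adjusted p left missing), fits without each library, with the number as a block, with a gene length offset (loess span 0.5), with marker levels as covariates, with mouse 3 of 6 h, and over more libraries. Overlaps of exons are from GENCODE vM21 (GRCm38), in which 130 of 130 named genes were found, 19 of them sharing over 10% of exonic bases. They include Tpbgl (38.6%), Rdh5 (25.6%), Spry1 (24.4%), Bhlhe41 (19.0%), Car14 (17.5%), Sqstm1 (17.3%), Tub (14.4%) and Cish (11.5%). Some genes that this rule takes are not reported here.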

Additional observations from a re-analysis of the deposited data

Results flagged for a closer look

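Dixon's criterion, applied to the 5 midday mice, marked a single library in 7 of 130 named genes. Chance marks about 1 in 20 independent groups, but these genes share the same 5 libraries, so the number cannot be judged against that rate. Most marks fell on mouse 1 of 5 h. Mouse 1 of 5 h was the highest for Bmp4 (440.3 CPM, others 396.2 to 404.0), Tpbgl (22.7 CPM, others 12.0 to 14.8), Loxl4 (54.3 CPM, others 37.6 to 42.1) and Stra6 (2592 CPM, others 2244 to 2335), and the lowest for Per2 (76.8 CPM, others 86.5 to 88.7). Mouse 3 of 5 h was the lowest for Ostm1 (164.4 CPM, others 171.1 to 173.2). Mouse 2 of 6 h was the highest for Rgcc (15.2 CPM, others 6.97 to 8.41).

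Members of the interferon list differed between the midday times by a test of the difference itself, with 6 h below 5 h on the log2 scale in Oasl2 (-1.59), Irf7 (-1.60), Ifit1 (-1.35), Rtp4 (-1.49), Xaf1 (-0.77) and Irf9 (-0.62). Ifit1, which blocks viral RNA, was at 8.26 and 8.76 CPM at 6 h and 22.5, 25 and 17.8 CPM at 5 h.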

How the results depend on the processing

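Under the 23 alternatives no named gene that passed changed direction, 10 of 99 passed in all of them and 63 passed without each single library. Per3 and Nr1d2 passed in 22 and did not in a shared fit over 24 libraries (adjusted p = 0.212 and 0.107). Cry2, Npas2 and Hlf passed in 20, Clock in 19, Nr1d1 in 18, Nfil3 in 16 and Dbp in 10. The count of 689 genes at midday against 0 h became 1316 with no filter, 1087 in DESeq2, 93 with mouse 3 of 6 h included, 85 in the shared fit over 24 libraries, 259 with 6 h alone, 235 with the rod level and 66 with the surface epithelium level as a covariate (added after seeing the data), and 353 to 669 without 1 library. With mouse 3 of 6 h included, 6, 83, 1 and 1 genes differed for midday against 1 h, 3 h and 9 h and for 6 h against 5 h. The count against 3 h was 1373 in DESeq2, and that of 6 h against 5 h was 121 there (14 higher, 107 lower). Without 1 library the ranges were 324 to 1292 against 1 h, 326 to 894 against 3 h, 349 to 1961 against 9 h and 14 to 62 for 6 h against 5 h. With the replicate block, counts were 508 against 0 h, 921 against 1 h, 407 against 3 h, 1326 against 9 h and 70 for 6 h against 5 h (30 higher, 40 lower). The cause of these shifts was not tested.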

Other observations

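Several genes outside the naming rule, chosen after their values were seen, also differed between midday and light onset. Thbs1, a matrix glycoprotein and ligand of CD36 and CD47, was at 1390, 1409 and 1410 CPM at 5 h, 1316 and 1220 CPM at 6 h, and 2968, 2885 and 2452 CPM at 0 h. It fell by 1.04 ± 0.07 on the log2 scale (adjusted p = 1.65e-06), with groups far apart. Over 0, 1, 3, 5, 6, 9, 15 and 16 h its means were 2743, 1941, 1452, 1391, 1257, 1098, 2068 and 2136 CPM. Midday was below 1 h (-0.54, adjusted p = 0.00339), did not pass against 3 h (-0.12, adjusted p = 0.351) and was above 9 h (0.29, adjusted p = 0.0112), the last only without mouse 3 of 6 h. For 1 h, the fit with that mouse is not given by gene. Itgb8, an integrin beta subunit, was at -0.35 ± 0.08 (adjusted p = 0.0189), a call that ended without mouse 1 or mouse 2 of 0 h (adjusted p up to 0.127).

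The genes below, chosen in the same way, were higher at midday. F3, tissue factor, was at 132.5, 116.1 and 118.0 CPM at 5 h, 139.6 and 139.5 CPM at 6 h, and 82.4, 82.5 and 82.3 CPM at 0 h (0.65 ± 0.07, adjusted p = 0.000165). Tshr, the thyrotropin receptor, rose by 0.57 ± 0.07 (adjusted p = 0.000444) and was above 1 h, 3 h and 9 h too (0.71, 0.52 and 0.31, adjusted p = 0.000659, 0.000696 and 0.0179), for 1 h and 9 h only without mouse 3 of 6 h. For 3 h, the fit with that mouse is not given by gene. Irs2, an adaptor of the insulin receptor, rose by 0.59 ± 0.07 (adjusted p = 0.000271). Gldc, the glycine decarboxylase of mitochondria, rose by 0.79 ± 0.08 (adjusted p = 0.000100), and Wnk4, a kinase that regulates chloride cotransport, by 0.59 ± 0.06 (adjusted p = 5.04e-05).

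The p-values rest on 3 mice at 0 h, and leaving out 1 of them ended many calls of modest size. Summed rod and B cell genes were lower in every midday library than in every library of 0 h, and those of skeletal muscle were lower at 6 h than at 5 h. The 8 defining RPE markers were higher at midday in sum. The part of RPE, B cell and muscle content in other results was not tested; the rod level was tried as a covariate. Reads carry no strand. Times of 1 to 9 h come from the light phase of a light and dark cycle, so light and the clock cannot be told apart. Whether all times were collected on the same day is not given in the labels.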
